A study of Mus musculus with 4 samples.

Results

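Proteasome subunit genes were examined for binding of KAP1 in mouse regulatory T cells. The genes were taken as all protein-coding genes on chromosomes 1 to 19 whose symbol is Psm, a letter from a to g, and a number. This rule gave 47 of the 20665 coding genes on these chromosomes. KAP1, the product of Trim28, is a transcriptional corepressor without a DNA-binding domain of its own, recruited by zinc finger proteins of the KRAB type. Chromatin immunoprecipitation with sequencing (ChIP-seq) had been applied to regulatory T cells, sorted from the spleen of C57BL/6 mice and grown in culture for 2 weeks. In all there were 2 samples from an anti-KAP1 antibody (1Tb-A9, Active Motif) and 2 input samples without antibody, with no other treatment named for either. The labels give no genotype, age, sex or number of animals, and do not say whether replicates came from separate cultures. For each KAP1 sample there was 1 list of peak summits, the base of highest enrichment in each peak, and the input samples were not analysed here.

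The proteasome degrades proteins that carry ubiquitin chains. Its core particle is a barrel with outer rings of alpha subunits (Psma genes) and inner rings of beta subunits (Psmb genes), some of which hold the proteolytic sites. A regulatory particle of ATPases (Psmc genes) and non-ATPase subunits (Psmd genes) binds, unfolds and feeds in the substrate. Psme genes encode activators that can replace this particle, Psmf1 encodes the inhibitor PI31, and Psmg genes encode chaperones of core assembly. In lymphocytes and interferon-treated cells, the products of Psmb8, Psmb9 and Psmb10 replace their constitutive counterparts to form the immunoproteasome, which shapes the peptides presented on MHC class I.

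Replicate 1 has 8862 summits and replicate 2 has 79515, or 8.97 times as many, and no read depth is recorded for them. A summit was called shared when a replicate 1 summit had a replicate 2 summit within 200 bp, which held for 7720 summits (87.1% of replicate 1). The peak caller scored each summit by −log10 of p or q, with a median of 7.25 in replicate 1 and 8.39 in replicate 2. These scores are the authors' own, and a summit's place is given below as its percentile within its own list. With 2 samples of 1 group there is no test between samples, and counts of genes are set beside the share of all coding genes, with no test of that difference. Summit lists hold no measure of transcription, so the cell type could not be checked against its markers.

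Shared summits lay at the ends of 13 of the 47 proteasome genes (27.7%, Wilson 95% interval 16.9 to 41.8%, which covers counting error only). An end is the 1 kb on both sides of the lowest or highest coordinate of a gene. Of all coding genes, 8.94% had a shared end summit. In the bodies of the genes, the rest of the gene, shared summits lay in 6 of 47 (12.8%, interval 5.98 to 25.2%), against 12.9% of all coding genes long enough to have a body. Proteasome genes are short, and per 100 kb of body there were 0.837 shared summits in the members and 0.355 in all coding genes. The member figure rests on 7 summits, 3 of them within 1 kb of a promoter start. Both figures pool the bases of all bodies, so long genes weigh most in them. How the body compares with the background thus depends on how length is taken into account. Within 20 kb of the gene, 27 of 47 had a shared summit (57.4%), against 34.3% of all coding genes. The end count was 5 of 47 (10.6%, against 4.02%) with replicate 2 limited to its 8862 highest scores, and 8 of 47 (17.0%, against 5.21%) with scores at or above the median of each list.

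The genes with a shared end summit came from 6 of the 8 subunit classes. They were Psma1, Psma2 and Psma3 of 8 alpha ring genes, Psmb3 and Psmb6 of 7 constitutive beta ring genes, and Psmc1 of 6 ATPase genes. The others were Psmd3, Psmd4 and Psmd6 of 13 non-ATPase genes of the regulatory particle, Psme3 and Psme4 of 4 activator genes, and Psmg2 and Psmg3 of 4 assembly chaperone genes. None of the 4 inducible or tissue-restricted beta genes, and not Psmf1, had one. These classes hold 1 to 13 genes, and no difference between them was tested.

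**Figure D1:**
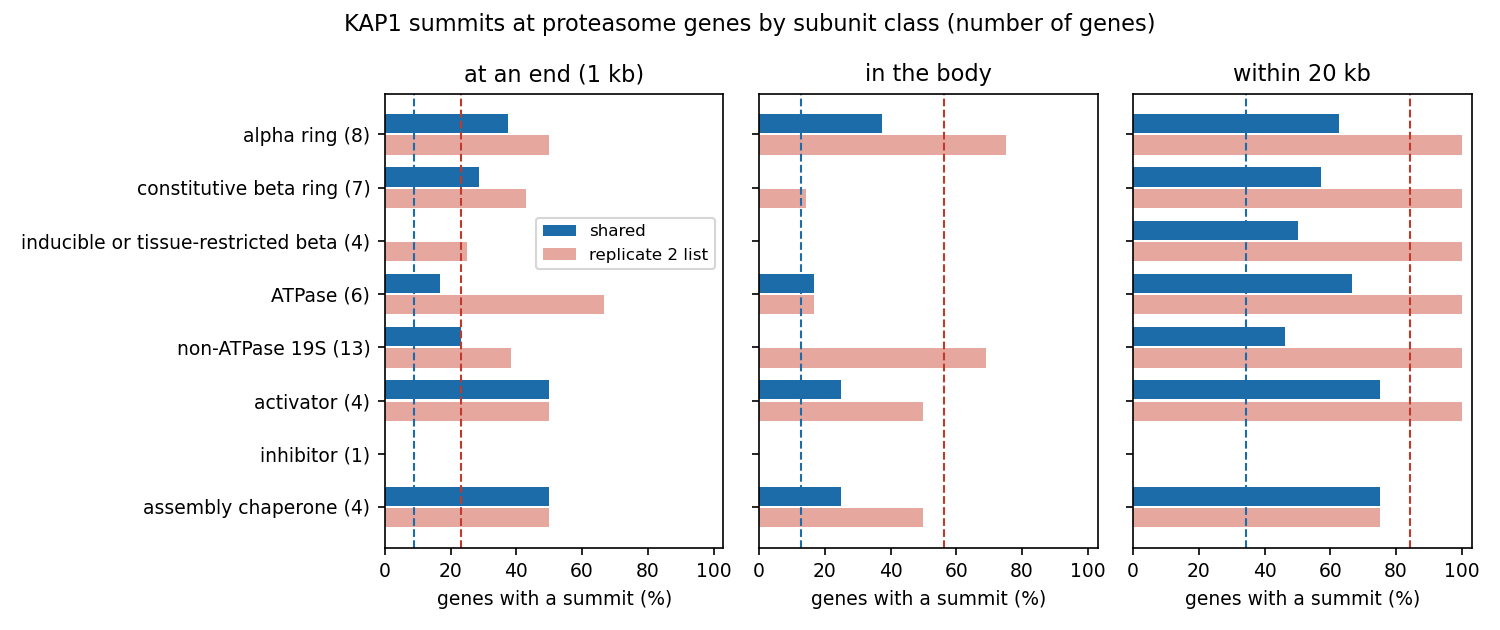
Percentage of proteasome genes with a KAP1 summit at an end, in the body and within 20 kb, by subunit class, with the number of genes in parentheses. Blue bars are shared summits, pink bars all replicate 2 summits, and dashed lines of the same colours give the share of all coding genes (8.94% and 23.2% at ends, 12.9% and 56.4% in bodies, 34.3% and 84.3% within 20 kb).

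The strongest end summit of the set lay at Psmc1, which encodes an ATPase of the ring that threads substrates into the core. On chromosome 12 it was found at position 100110079 (mm10), below the lower end of the gene by 123 bp, and scored 37.4 in replicate 1 and 53.4 in replicate 2. These are the 97.3rd and 99.5th percentiles of the lists, and the summits of the replicates were 6 bp apart. At Psma1, an alpha ring gene on chromosome 7, the shared summit was 413 bp beyond the higher end (position 114276529), and its scores were 20.2 and 46.1 (percentiles 89.0 and 99.2). Psmb6, whose product carries the caspase-like proteolytic site, was marked on chromosome 11 at position 70525152, which is 172 bp below the gene (scores 17.0 and 26.1).

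Psmb3 encodes a beta ring subunit without a proteolytic site. Its shared summit on chromosome 11 (position 97702537) stood 897 bp below the gene and scored 12.0 and 40.2. Its percentiles were 74.6 and 98.9, where the shared summits at all coding gene ends had medians of 58.3 and 82.2. An end of the Polycomb gene Pcgf2 and an asparagine tRNA gene, n-TNgtt8, lay within 1 kb of the same summit. Psmd3, a scaffold subunit of the regulatory particle lid, was marked at 155 bp below its lower end, also on chromosome 11 (scores 10.7 and 13.9). Psmg2, which encodes the chaperone PAC2, was marked 891 bp into the gene from the lower end (13.2 and 13.0).

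Apart from that of Psma3, the remaining end summits were weaker. Psmg3, the gene of the chaperone PAC3, was the only member with 2 shared end summits, at 12 and 946 bp outside its higher end on chromosome 5. The nearer had scores of 5.10 and 6.97, and the farther 9.50 and 10.3. Psmd4, which encodes a ubiquitin receptor of the regulatory particle, had its summit 664 bp outside the gene (6.16 and 8.88). Psma2 had one 74 bp inside the gene (5.10 and 9.60), within 1 kb of an end of Mrpl32, a mitochondrial ribosomal protein gene. Psme3, the gene of the nuclear activator PA28 gamma, had one 764 bp outside (7.25 and 7.01), and Psme4, the gene of the large activator PA200, one 190 bp outside (4.17 and 6.54). Psmd6, a lid subunit gene, had the weakest. Its scores of 2.31 and 4.0 stood at percentiles 2.3 and 1.5, and the replicate summits were 131 bp apart, the widest gap of the set.

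Across the 14 shared end summits of the 13 genes, replicate 1 scores ranged from 2.31 to 37.4 with a median of 10.1, and replicate 2 scores from 4.0 to 53.4 with a median of 11.7. The 1717 shared summits at coding gene ends had medians of 8.34 and 12.8. The median distance between the replicate summits was 5 bp at the proteasome genes. No 2 members shared an end summit.

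**Figure D2:**
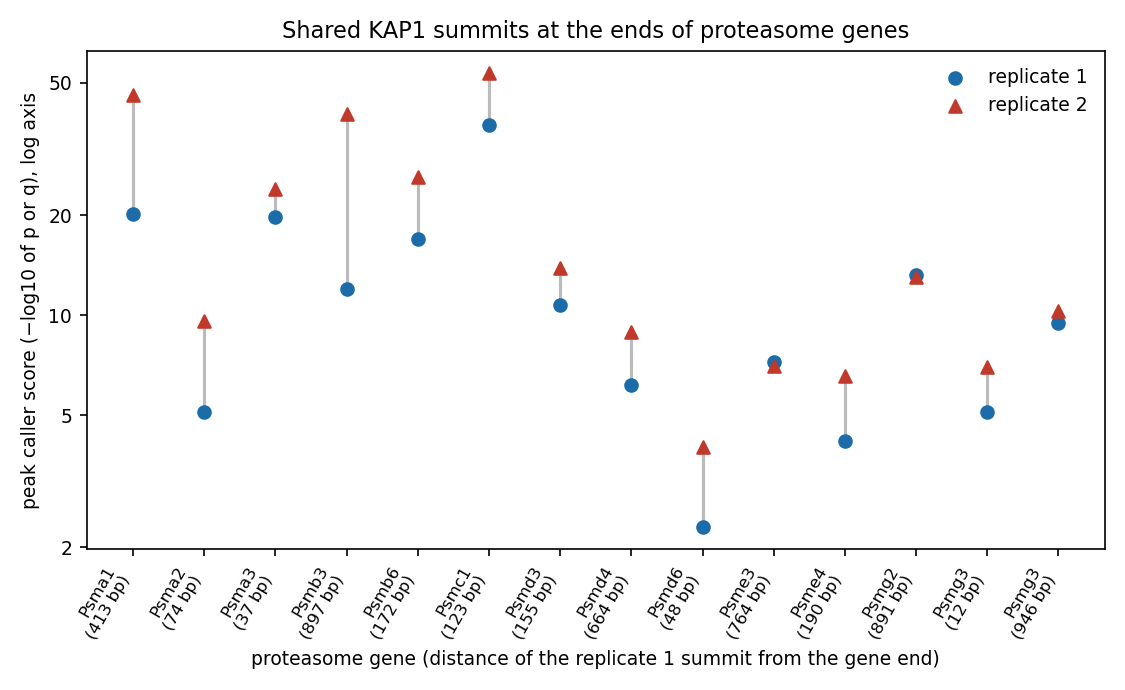
Peak caller scores (−log10 of p or q, log axis) of the 14 shared summits at proteasome gene ends, in replicate 1 (circles) and replicate 2 (triangles), with the distance of the replicate 1 summit from the gene end. Psmc1 has the highest score in both replicates (37.4 and 53.4) and Psmd6 the lowest (2.31 and 4.0).

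Because the gene table gives no strand, summits were also placed against the starts of RefSeq promoters (GRCm38.p6, the same coordinates as mm10). Promoters were matched by gene identifier for 39 of the 47 genes, 42 starts in all, and distances to them were looked up by symbol. Not matched were Psma8, Psmb1, Psmb2, Psmb7, Psmc3, Psmd3, Psmd7 and Psmg2. Among the 39 genes, the outer end on the side where transcription starts had a shared summit in 11 and the other end in 0. The 11 include Psma3, whose end summit lies 5377 bp upstream of its promoter start. Among the 14542 coding genes with a strand and over 2 kb, 8.62% had one at the start end and 1.41% at the other end.

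Within 1 kb of a promoter start, 12 of the 39 genes had a shared summit (30.8%), against 8.57% of the 16457 coding genes with a promoter. These are 14 summits, at a median distance of 198 bp from the start, and 8 of them lay within 250 bp. Relative to gene ends the list of genes changed slightly. Psmc2, an ATPase gene, entered it, because its shared summit (scores 10.7 and 10.3) lies 1460 bp inside the gene but 12 bp upstream of the second of its 2 promoter starts. Psmd3 and Psmg2 left it, as they were not matched to a promoter. In the replicate 2 list, 16 of the 39 genes had a summit within 1 kb of a start (41.0%, against 18.2% of coding genes).

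Psma3, an alpha ring gene, stayed in the list through different summits. The summit at its lower end, at position 70969246 of chromosome 12 (scores 19.8 and 23.9), lay 5377 bp upstream of the promoter start, within 1 kb of the lysine tRNA gene n-TKctt17. The promoter start itself had a stronger summit 132 bp upstream, at position 70974491 (42.1 and 41.3, percentiles 98.0 and 99.0), and another 511 bp upstream (7.22 and 11.0). The gene table counts both as body summits, because it begins the gene farther upstream. A tRNA gene thus lay within 1 kb of 2 of the 14 shared end summits of the set, those at Psma3 and Psmb3. At all coding gene ends this held for 11 of the 1717 (0.641%). The comparison rests on these 2 summits, and the difference was not tested.

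**Figure D3:**
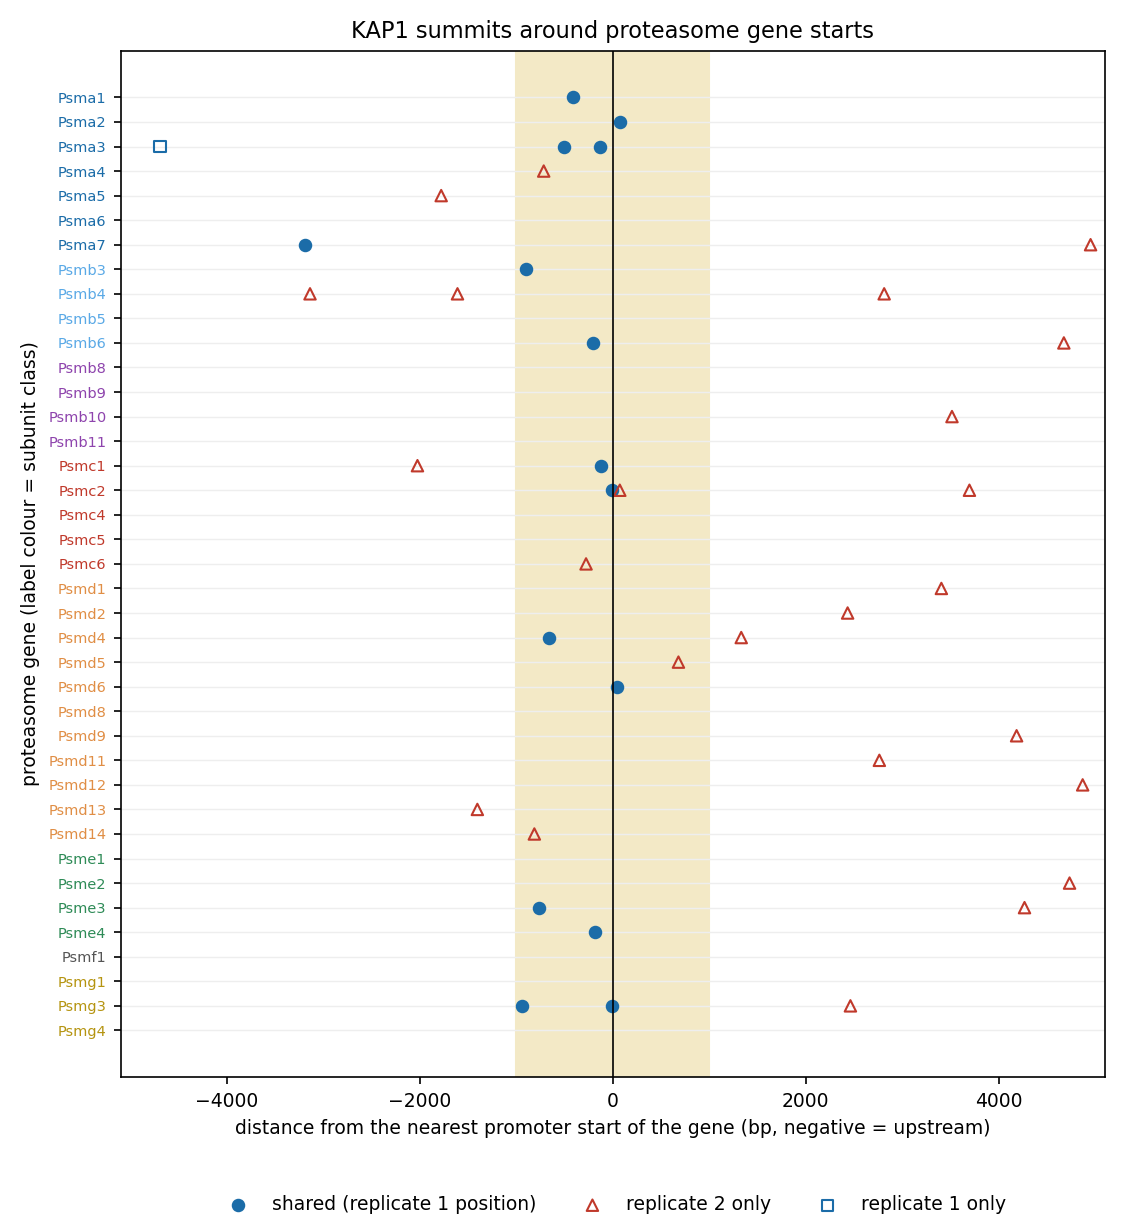
Position of KAP1 summits from the nearest promoter start (bp, negative is upstream) at the 39 proteasome genes with a RefSeq promoter, one gene per row, label colours giving the subunit class. Filled circles are shared summits, open triangles replicate 2 only, the open square replicate 1 only, and the shaded band is the 1 kb on both sides, in which 12 genes have a filled circle.

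**Figure D4:**
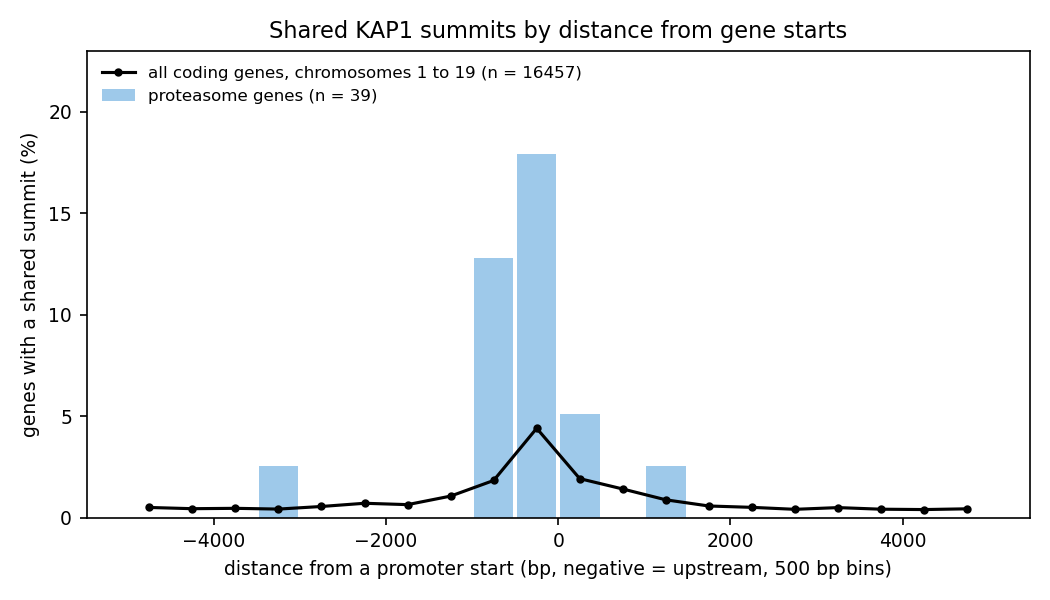
Percentage of genes with a shared summit in bins of 500 bp around promoter starts, for 39 proteasome genes (bars) and 16457 coding genes (line). The bin just upstream of the start holds a summit in 17.9% of the proteasome genes and 4.41% of coding genes, the next bin upstream 12.8% and 1.84%, and the first bin downstream 5.13% and 1.93%.

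In 6 members a shared summit lay in the 250 bases before a promoter start. Their sequences around the replicate 1 summit are shown, since they are the promoter DNA on which the KAP1 summits lie. Each run holds up to 75 bases on both sides of the summit, stops at the start of transcription and reads 5′ to 3′ on the strand of the gene. Capitals mark matches, on either strand, to 5 short motifs. The first, TGANNNNGC, is the core of the antioxidant response element, which the proteasome gene activator Nfe2l1 binds. CCAAT is the site of the trimeric factor NF-Y, and the GC box, GGGCGG, that of Sp1. Factors of the ETS family bind sites like the fourth, CCGGAAG. The fifth is the palindromic motif of the factor NRF1 (nuclear respiratory factor). The sequences are RefSeq's, GRCm38.p6.
Psma3, chr12:70974416-70974566, plus strand: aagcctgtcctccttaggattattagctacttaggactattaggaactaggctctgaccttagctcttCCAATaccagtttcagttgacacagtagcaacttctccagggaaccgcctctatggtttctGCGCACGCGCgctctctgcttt
Psmb6, chr11:70525107-70525227, plus strand: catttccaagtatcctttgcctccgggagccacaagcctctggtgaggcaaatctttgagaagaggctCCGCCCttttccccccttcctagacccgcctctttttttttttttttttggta
Psmc1, chr12:100110004-100110154, plus strand: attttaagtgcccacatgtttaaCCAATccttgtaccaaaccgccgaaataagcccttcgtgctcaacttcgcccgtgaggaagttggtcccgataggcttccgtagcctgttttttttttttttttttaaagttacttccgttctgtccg
Psmc2, chr5:21786660-21786746, plus strand: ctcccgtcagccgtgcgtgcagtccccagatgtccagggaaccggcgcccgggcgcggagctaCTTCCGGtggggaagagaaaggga
Psme4, chr11:30771525-30771660, plus strand: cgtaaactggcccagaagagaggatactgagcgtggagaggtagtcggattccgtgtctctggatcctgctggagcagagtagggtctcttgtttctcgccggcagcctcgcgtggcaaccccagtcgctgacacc
Psmg3, chr5:139826895-139826981, minus strand: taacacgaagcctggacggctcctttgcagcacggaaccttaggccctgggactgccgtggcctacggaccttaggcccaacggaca

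The summit is base 76 of the run at Psma3, Psmc1, Psmc2 and Psmg3, base 46 at Psmb6 and base 61 at Psme4. The run at Psma3 holds CCAAT and the NRF1 motif, that at Psmc1 CCAAT, that at Psmb6 a GC box and that at Psmc2 an ETS match, while those at Psme4 and Psmg3 hold none of the 5. The 3 summits with the highest scores, at Psma3, Psmc1 and Psmb6, stand in runs of 48.3%, 43.7% and 48.8% G and C, and those at Psmc2, Psme4 and Psmg3 in runs of 69.0%, 59.6% and 62.1%. A match is a description of letters and not a binding site.

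Over the whole promoter window, 250 bases before to 50 after the start, CCGGAAG was found in 14 of the 39 proteasome genes (35.9%), against 13.3% of the 16457 coding genes. It was in 7 of the 12 genes with a shared summit within 1 kb of a start and in 7 of the 27 without. CCAAT was in 13 of 39 (33.3%, against 42.3%), of which 8 were among the 12 with a start summit and 5 among the 27 without. TGANNNNGC was in 23 of 39 (59.0%, against 45.5%), of which 4 were among the 12 and 19 among the 27. The GC box was found in 22 of 39 (56.4%, against 50.3%; 5 of 12 and 17 of 27) and the NRF1 motif in 7 of 39 (17.9%, against 9.93%; 2 of 12 and 5 of 27). Matches overlapped a match to another of the motifs in 5 genes for TGANNNNGC, 6 for the GC box and 1 for CCGGAAG. The split by start summit was not counted over all coding genes, so it has no background here. No difference between the 12 and the 27 genes was tested for any motif.

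Promoters of the 12 genes with a shared start summit had a median of 53.8% G and C, from 47.0 to 71.0%. The 27 without had a median of 60.3%, from 45.7 to 77.0%, so the ranges overlapped widely. The median was 59.0% over the 39 genes and 57.7% over all coding genes. Coding genes whose promoters lay in the middle 50% of the members' G and C values had a shared start summit in 11.8% of cases. The 30.8% of the proteasome genes covers all 39 members, whatever their G and C content. The share among members within that middle range was not counted. Whether G and C content accounts for the difference from all coding genes was thus not tested.

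Inside the genes, 7 shared summits lay in the bodies of 6 members, and 3 of these 7 are the promoter start summits of Psma3 and Psmc2 described above. The other 4 lay in Psme4, Psma2, Psma8 and Psmg1. Psme4, the longest member at 109376 bp, held the strongest, 14854 bp into the gene at position 30786629 of chromosome 11 with scores of 29.4 and 57.3 (percentiles 94.8 and 99.6). This was far above the summit at its start (4.17 and 6.54), and 9 further body summits of Psme4 were in replicate 2 only. Psma2 (3.21 and 5.64), Psmg1 (4.17 and 6.14), the gene of the chaperone PAC1, and Psma8 (5.10 and 8.25), the alpha subunit gene of germ cells, had 1 each, all below the median of their lists. Proteasome genes had a median length of 12293 bp, against 17491 bp for all coding genes. Coding genes of the members' middle lengths, 6292 to 22246 bp, had a shared body summit in 7.53% of cases and a shared end summit in 10.9%. Those between the shortest and the longest member, 2535 to 109376 bp, had a shared body summit in 11.5% of cases.

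The genes of the immunoproteasome and of its interferon-inducible activator showed no shared summit at their ends or in their bodies. These are Psmb8, Psmb9 and Psmb10, together with Psme1 and Psme2, whose products form PA28 alpha-beta, and the same held for Psmb11, the beta subunit gene of thymic cortical epithelium. Of all coding genes, only 8.94% had a shared end summit, and 12.9% of those long enough had one in the body. Of these 6 genes, only Psmb10 had an end summit in replicate 2 (16.7%, against 23.2% of all coding genes). It lay 852 bp outside the lower end with a score of 9.69. With 6 genes, a share of 0 has a Wilson 95% interval that reaches 39.0%. A share like that of all coding genes, or of the other members, could thus not be told apart from it. These genes are also short, from 2665 bp (Psmb10) to 5301 bp (Psmb9), so the lack of body summits says little.

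Around Psmb8 and Psmb9, which lie side by side with Tap1 and Tap2, the peptide transporter genes, in the MHC on chromosome 17, there were 6 shared summits within 20 kb. The strongest lay at position 34207444 inside Tap2, 5990 bp from Psmb8, with scores of 24.8 and 33.7 (percentiles 92.3 and 98.4). On the other side, 4 lay between 4660 and 16425 bp from Psmb9, with replicate 1 scores of 5.10 to 17.0 and replicate 2 scores of 4.28 to 22.2. Near Tap2, 4 replicate 1 summits with scores of 3.45 to 5.10 had no partner in the longer replicate 2 list. Between Psme1 and Psme2 on chromosome 14 lay a replicate 2 summit of score 23.1, at an end of Emc9, without a replicate 1 partner. The only shared summit near Psme2 was 12953 bp away at the ends of Irf9 and Rnf31 (5.10 and 7.15).

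In the 20 kb flanks of all members there were 21 shared summits. Of these, 6 lay at an end of another coding gene, 5 inside another coding gene and 10 in neither. For 11 of the 47 members the flank held their only shared summits, and the matching share of all coding genes was not counted. Examples are Psmd12 (14154 bp away, scores 10.4 and 45.2), Psmd13 (9434 bp away, 8.28 and 41.8) and Psmb7 (14805 bp away, 10.7 and 34.4), chosen after their values were seen. At these sites the summit stood at percentiles 68.7, 54.9 and 69.1 of replicate 1 and at 99.2, 99.0 and 98.5 of replicate 2. Psmb1 had its shared summit 1514 bp away, at an end of Tbp, the TATA-binding protein gene. Psma7 had one 3187 bp upstream of its start, inside Ss18l1.

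Replicate 2 alone placed end summits at 8 further members, so that 21 of 47 had one in its list (44.7%, against 23.2% of all coding genes). The highest was at Psma4, 639 bp outside the gene, with a score of 17.0 (percentile 92.7) and the ends of Hykk and AY074887 within 1 kb. Psmd14, the gene of the deubiquitinase of the lid, had one 814 bp outside (9.93), and Psmd5, a chaperone of the ATPase ring, one 683 bp inside (9.75). The scores at Psmc6, Psmb4, Psmc2 and Psmc3 were 7.57, 6.32, 6.00 and 5.71, all below the list's median. An end of Pogz lay within 1 kb of the summit at Psmb4, and an end of Dnajc2 within 1 kb of that at Psmc2. Psmg2 and Psmg3 each had a further end summit in replicate 2 alone, at the end opposite to their shared ones (12.4 and 11.6). In bodies, 21 of 47 genes had a replicate 2 summit (44.7%), against 56.4% of all coding genes, 52.3% of those between the shortest and longest member and 41.0% of those of the members' middle lengths. Per 100 kb of body, replicate 2 had 5.26 summits in the members and 3.88 in all coding genes. In the replicate 1 list, the same 13 members had an end summit as with shared summits (27.7%, against 9.84% of all coding genes).

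No summit of either replicate lay at an end of 26 members. The other 21 of 47 had one in replicate 2 (44.7%, against 23.2% of all coding genes). Of the 26, 16 also had none in the body, including Psmb5 and Psmb2, which encode a proteolytic and a structural beta subunit, Psma5, Psmc4, Psmc5, Psmd7 and Psmd8. The share of all coding genes without either was not counted. Psmf1 and Psmg4 were the only members without any summit within 20 kb. In replicate 2, 45 of 47 members had one there (95.7%, against 84.3% of all coding genes).

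Other genes that work with the proteasome had 4 of 31 with a shared end summit (12.9%, against 8.94% of all coding genes). This order turned with scores at or above the median of each list (1 of 31, 3.23% against 5.21%) and with replicate 2 limited to its 8862 highest scores (1 of 31, 3.23% against 4.02%). The list held 34 assembly factors, associated proteins, ubiquitin genes, shuttle factors and antigen-processing genes, of which 2 lie on chromosome X and Paaf1 was not matched. Akirin2, which brings proteasomes into the nucleus, had one 276 bp outside (17.9 and 35.9). Nploc4, a cofactor of the Vcp unfoldase, had one 262 bp outside (5.10 and 11.8). Both lay upstream of the promoter start. Uba6, a ubiquitin-activating enzyme, had one 376 bp from its end (5.10 and 5.92), with no promoter start to place it. The summit of Tapbp, the tapasin gene, was 67 bp from its end and also at an end of Rgl2 (5.10 and 7.02). It lay 9879 bp downstream of the promoter start of Tapbp. Nfe2l1, which drives proteasome gene transcription, had neither replicate's summit at an end. Its relative Nfe2l2 had 3 shared body summits and none at an end, and the assembly factor Pomp had an end summit in replicate 2 only.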

How the data were processed

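KAP1 ChIP-seq was performed on 2 samples, with 2 inputs. Per the labels' protocols, nuclear lysates were sonicated, DNA SMART ChIP-Seq libraries were made, and DNA of 150 to 400 bp was kept. The build was mm10, and Bowtie2 2.2.9, Picard 2.1.1 and MACS2 2.2.1 are named, per the submitters' processing notes. How each tool was set, the control and the calling threshold are not stated. The authors deposited 1 summit list per KAP1 sample, not pooled, whose score is −log10 of either p or q, and the lists do not say which. Scores were used only to describe, rank and filter summits within a list.

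Genes came from an NCBI RefSeq table of GRCm38.p6, which gives each gene's 2 outer coordinates but no strand, and promoter starts and sequences from RefSeq of the same build. Positions are 1-based. The members and lists were chosen with earlier results of these data known. Named are all members with a shared end or body summit, up to 3 members per class with the highest replicate 2 end score without a partner, the Psme genes, Psmb8 to Psmb11 and Psmf1, pathway genes with a shared end summit, and other genes at a member's end summit. The flank examples, the members without summits, Nfe2l1, Nfe2l2 and Pomp were chosen after their values were seen, as was the use of promoter starts in place of gene ends. Alternatives changed the shared distance, scores, list lengths, replicates and window widths. Python 3.11.15, pandas 2.3.3 and scipy 1.17.1 were used, and the counting was tested on simulated summits.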

Additional observations from a re-analysis of the deposited data

How the results depend on the processing

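Shared end summits were found at 12 of 47 members with a shared distance of 50 bp (25.5%, against 8.36% of all coding genes). With 500 bp the count was 13 (27.7%, against 9.0%). It was 9 with ends of 500 bp (19.1%, against 6.18%) and 16 with ends of 2500 bp (34.0%, against 13.2%). Measured within 1000 bp of promoter starts, the count was 12 of 39 (30.8%, against 8.57%). With scores at or above the median of each list, 8 members kept an end summit (17.0%, against 5.21% of all coding genes). A body summit was kept by 3 members (6.38%, against 8.04%) and one within 20 kb by 19 (40.4%, against 23%). Of the pathway genes, 1 kept an end summit (3.23%, against 5.21%). When replicate 2 was limited to its 8862 highest scores, the number of replicate 1 summits, these counts were 5 (10.6%, against 4.02%), 2 (4.26%, against 6.37%), 15 (31.9%, against 18.7%) and 1. The 5 with an end summit were Psma1, Psma3, Psmb3, Psmb6 and Psmc1. Without replicate 2, 13 members had a summit at an end (27.7%, against 9.84%), 6 in the body (12.8%, against 13.8%) and 27 within 20 kb (57.4%, against 35.9%). Without replicate 1, these counts were 21 (44.7%, against 23.2%), 21 (44.7%, against 56.4%) and 45 (95.7%, against 84.3%). Pathway genes at ends numbered 6 without replicate 2 (19.4%, against 9.84%) and 13 without replicate 1 (41.9%, against 23.2%). With ends of 2500 bp, 7 pathway genes had one (22.6% against 13.2%). The share of members at ends and within 20 kb was above that of all coding genes under each of these settings. That of pathway genes at ends fell below it with scores at or above the medians (3.23% against 5.21%) and with replicate 2 limited (3.23% against 4.02%). In bodies, the members' share without regard to gene length was below that of all coding genes, except with shared distances of 50 bp (12.8% against 12.3%) and with ends of 500 bp (14.9% against 13.4%) and 2500 bp (13.2% against 12.5%). Genes of the members' middle lengths had a body share of 7.53%, and those between the shortest and longest member 11.5%. The members' 12.8% covers members of all lengths. Shared body summits per 100 kb were 0.837 in members and 0.355 in all coding genes. The member figure rests on 7 summits, 3 of them within 1 kb of a promoter start. No paired analysis was possible because the input samples that share replicate numbers with the KAP1 samples have no summit list here. Read depth is unknown, so a missing summit, above all in replicate 1, cannot be told apart from one that was below the caller's threshold.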
